A study of Mus musculus with 24 samples.

Results

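Transcripts of 7 genes that make, store, recapture, break down or sense dopamine were followed in the mouse hypothalamus: Th, Ddc, Dbh, Slc18a2, Slc6a3, Maoa and Drd2. They were taken by gene symbol from probe sets annotated to a single gene. Each had 1 such probe set, so that they are 7 of the 19937 genes analysed. Whole hypothalamus came from male mice of 2 inbred strains, BPH/2J, which has high blood pressure, and BPN/3J, which has normal pressure. There were 4 groups, each strain at 6 weeks (young) and at 26 weeks (adult), with 6 mice per group, 1 mouse per array, and tissue taken when pressure was highest in the day. All mice had standard housing with no other treatment named, and 24 arrays of the Affymetrix Mouse Gene 1.0 ST type were made. The values are RMA values on the log2 scale, on which 1 unit is a 2-fold change.

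Dopamine is made from tyrosine, which Th (tyrosine hydroxylase) turns into L-DOPA and Ddc (aromatic L-amino acid decarboxylase) turns into dopamine. Slc18a2, the vesicular monoamine transporter, packs it into vesicles, Slc6a3, the dopamine transporter, takes it back up after release, Maoa (monoamine oxidase A) degrades it, and Dbh (dopamine beta-hydroxylase) turns it into noradrenaline in noradrenergic neurons. In the hypothalamus, dopamine neurons of the arcuate and periventricular nuclei restrain prolactin release from the pituitary through the D2 receptor, Drd2. The denser dopamine cell groups of the ventral midbrain lie just behind the hypothalamus and carry high Slc6a3.

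Promoter sequences are shown for the 5 members whose levels varied together from mouse to mouse, as described further on. They were taken from RefSeq for assembly GRCm38.p6, 5′ to 3′, from 250 bases before to 10 bases past the annotated start site. Capitals mark exact matches to TGACGTCA (the cAMP response element, CRE), AAAGGTCA (the NBRE, the site of Nr4a-type nuclear receptors) and GGGCGG (the core bound by SP1), on either strand. RefSeq held promoter windows for all 7 members, 8 windows in all because Ddc has a second start site. Of the Ddc windows the one with the NBRE letters is shown.
Th, chr7:142899986-142900245, minus strand: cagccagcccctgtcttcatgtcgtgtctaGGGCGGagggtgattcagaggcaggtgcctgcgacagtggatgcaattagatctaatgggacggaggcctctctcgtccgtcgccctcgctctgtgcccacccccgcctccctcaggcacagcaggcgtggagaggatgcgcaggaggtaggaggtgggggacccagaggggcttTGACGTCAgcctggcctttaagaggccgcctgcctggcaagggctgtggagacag
Slc18a2, chr19:59260628-59260887, plus strand: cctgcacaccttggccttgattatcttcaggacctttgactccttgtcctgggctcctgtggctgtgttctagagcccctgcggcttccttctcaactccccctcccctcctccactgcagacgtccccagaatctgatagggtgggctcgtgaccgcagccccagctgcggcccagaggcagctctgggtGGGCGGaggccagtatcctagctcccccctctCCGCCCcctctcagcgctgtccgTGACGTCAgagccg
Slc6a3, chr13:73536497-73536756, plus strand: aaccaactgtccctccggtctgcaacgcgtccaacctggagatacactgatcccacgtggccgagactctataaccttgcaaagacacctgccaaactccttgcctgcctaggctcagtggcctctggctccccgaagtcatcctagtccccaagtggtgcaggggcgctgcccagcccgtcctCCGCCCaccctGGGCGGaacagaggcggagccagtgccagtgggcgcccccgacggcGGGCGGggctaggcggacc
Ddc, chr11:11898135-11898394, minus strand: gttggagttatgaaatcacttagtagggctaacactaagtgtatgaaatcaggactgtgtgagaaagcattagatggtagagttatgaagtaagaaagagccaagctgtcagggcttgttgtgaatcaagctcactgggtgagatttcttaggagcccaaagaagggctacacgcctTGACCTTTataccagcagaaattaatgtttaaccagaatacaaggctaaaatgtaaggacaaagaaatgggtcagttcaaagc
Drd2, chr9:49340153-49340412, plus strand: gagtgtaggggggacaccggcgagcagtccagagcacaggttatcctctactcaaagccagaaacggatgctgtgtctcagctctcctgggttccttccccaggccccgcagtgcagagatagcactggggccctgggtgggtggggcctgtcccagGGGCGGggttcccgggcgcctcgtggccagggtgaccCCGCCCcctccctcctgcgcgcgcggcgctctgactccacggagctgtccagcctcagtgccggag
TGACGTCA stood in the Th promoter, its first base 45 bases before the start site, and in the Slc18a2 promoter, 4 bases before it, and in 1.79% of all 32851 promoter windows. GGGCGG stood in 5 of the 8 member windows, 3 times in that of Slc6a3, and in 35.7% of all windows. AAAGGTCA stood on the opposite strand of the Ddc window, overlapping the letters TATAAA of a TATA box on that strand, and in 1.51% of all windows. TTCNNNGAA, the letters of a STAT site, stood in none of the 8 member windows and in 8.30% of all. These shares are over windows of 300 bases, 250 before and 50 after the start site. A match describes the letters only.

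A pair of arrays stood apart from the other 22 in genes of serotonin neurons, which lie in the raphe nuclei of the brainstem. Tph2, the neuronal enzyme of serotonin synthesis, read 8.17 in BPN/3J replicate 5 at 26 weeks and 7.03 in BPN/3J replicate 1 at 6 weeks, against 4.01 to 4.53 on the other 22 arrays. Slc6a4, the serotonin transporter, read 7.45 and 6.34 on these arrays and 4.82 to 5.66 on the others. Both genes were singled out after their values were seen. The same arrays ranked first and second of 24 for Th, Ddc, Slc6a3 and Slc18a2. Group differences and pooled SDs of these genes are given with and without these arrays where they move. So are their correlations with each other and with midbrain markers. The labelled tissue was checked through 20 hypothalamic genes, of which 19 were measured and 19 lay on average above the median of unnamed probe sets, which served as a guide to dim signal. Array medians ran from 5.89 to 6.09, and arrays correlated with the rest of their group at 0.986 to 0.997 on average.

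**Figure D1:**
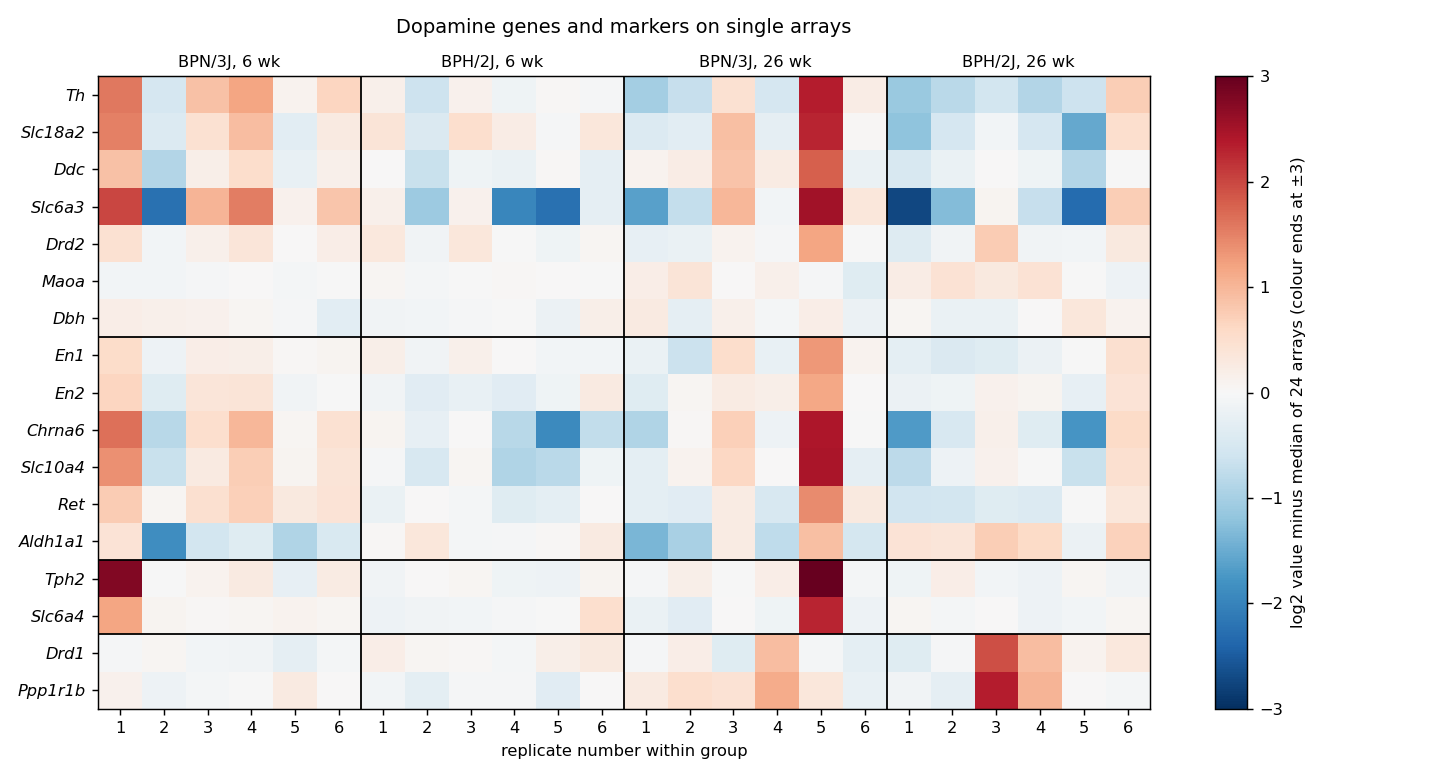
Colour shows the log2 value of each gene on each array minus the gene's median over 24 arrays, with arrays in columns by group and replicate number. Rows from the top are the 7 members, 6 midbrain dopamine markers, 2 serotonin markers and 2 striatal markers. BPN/3J replicate 5 at 26 weeks and replicate 1 at 6 weeks are high in Th, Slc18a2, Ddc, Slc6a3, the midbrain markers and the serotonin markers, and BPH/2J replicate 3 at 26 weeks is high in Drd1 and Ppp1r1b.

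The synthesis genes came first. In 6-week BPH/2J mice Th ran from 7.89 through a median of 8.51 to 8.66, and in 6-week BPN/3J mice from 7.99 through 9.27 to 10.10. At 26 weeks it ran from 7.39 through 7.80 to 9.25 in BPH/2J and from 7.49 through 8.37 to 10.86 in BPN/3J. At both ages the BPN/3J arrays reached higher, but the lowest BPN/3J array lay inside the BPH/2J range, so the groups overlapped. The group means descended from BPN/3J at 6 weeks (9.16 ± 0.76, SD, n = 6) through BPN/3J at 26 weeks (8.65 ± 1.22) and BPH/2J at 6 weeks (8.43 ± 0.29) to BPH/2J at 26 weeks (7.97 ± 0.66). No neighbours in this order were more than 0.64 pooled SDs apart.

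Ddc, the next enzyme, had medians that were close in the BPH/2J groups, 8.82 at both ages, and higher in BPN/3J. Its BPH/2J range was 8.32 to 9.01 at 6 weeks and 8.10 to 9.01 at 26 weeks. In BPN/3J it ran from 8.11 through 9.16 to 9.87 at 6 weeks and from 8.80 through 9.22 to 10.78 at 26 weeks. At 26 weeks 5 of the 6 BPN/3J arrays lay above the highest BPH/2J array, and the remaining one, replicate 6 at 8.80, lay inside the BPH/2J range. In the order of the group means, BPN/3J at 26 weeks (9.49 ± 0.72, SD, n = 6) came before BPN/3J at 6 weeks (9.09 ± 0.61), BPH/2J at 6 weeks (8.78 ± 0.25) and BPH/2J at 26 weeks (8.70 ± 0.35), with neighbours at most 0.77 pooled SDs apart.

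Dbh, which marks noradrenergic cells, was dim. It lay at or below the median of the unnamed probe sets on 24 of 24 arrays, between 3.97 and 4.63, a level too dim to compare the groups on. The other 6 members lay above that level on every array. The noradrenaline transporter gene Slc6a2 lay between 4.86 and 5.57.

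Slc6a3, the transporter that takes dopamine back up, varied most of the members. It ran from 7.09 through a median of 8.64 to 9.49 in 6-week BPH/2J mice and from 7.10 through 10.27 to 11.33 in 6-week BPN/3J mice. At 26 weeks it ran from 6.61 through 8.33 to 10.08 in BPH/2J and from 7.71 through 9.46 to 11.84 in BPN/3J. The 24 arrays spanned 5.23 log2 units, a 37.6-fold range, and the groups themselves spanned from 2.40 (6-week BPH/2J) to 4.23 units (6-week BPN/3J). Replicate 2 of BPN/3J at 6 weeks read 7.10 while the other 5 arrays of its group lay between 9.46 and 11.33. The means were 9.88 ± 1.50 (SD, n = 6) in BPN/3J at 6 weeks, 9.57 ± 1.43 in BPN/3J at 26 weeks, 8.45 ± 1.05 in BPH/2J at 6 weeks and 8.30 ± 1.35 in BPH/2J at 26 weeks. The largest gap between neighbours in that order was 0.83 pooled SDs.

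Slc18a2 spanned 3.81 log2 units, or 14.1-fold. It ran from 8.04 through 8.75 to 8.96 in BPH/2J and from 8.05 through 8.83 to 9.98 in BPN/3J at 6 weeks. At 26 weeks it ran from 6.94 through 7.95 to 8.96 in BPH/2J and from 8.04 through 8.35 to 10.75 in BPN/3J. The 26-week BPH/2J group was the lowest by its mean (7.91 ± 0.74, SD, n = 6), 0.94 pooled SDs under that of BPH/2J at 6 weeks (8.63 ± 0.34), and its range still overlapped that of every other group.

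Maoa behaved differently. At 6 weeks its 12 arrays were almost level, from 9.06 through 9.11 to 9.17 in BPH/2J and from 9.02 through 9.05 to 9.12 in BPN/3J. At 26 weeks the same gene ran from 8.95 through 9.37 to 9.55 in BPH/2J and from 8.73 through 9.19 to 9.49 in BPN/3J. Its SD was 0.04 in each 6-week group against 0.24 in BPH/2J and 0.26 in BPN/3J at 26 weeks, a difference in spread that was not tested. The group means stayed within 9.06 and 9.31, with neighbours at most 0.85 pooled SDs apart.

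Drd2, the inhibitory receptor, had medians between 7.76 and 8.03 in the 4 groups. It ran from 7.72 to 8.20 in BPH/2J and from 7.77 to 8.31 in BPN/3J at 6 weeks, and from 7.48 to 8.62 and from 7.61 to 9.03 at 26 weeks. The ranges lay almost on top of each other, and single 26-week arrays set their upper ends. The means lay between 7.92 and 8.04, with neighbours at most 0.14 pooled SDs apart. The highest BPH/2J array, replicate 3 at 26 weeks, also read 9.01 for Drd1 and 9.73 for Ppp1r1b, genes of striatal projection neurons whose medians over 24 arrays were 7.08 and 7.37. Its mean over 13 measured striatal genes was 9.26, and the other 5 arrays of its group lay between 8.10 and 8.49. The part of this in its Drd2 value was not tested.

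**Figure D2:**
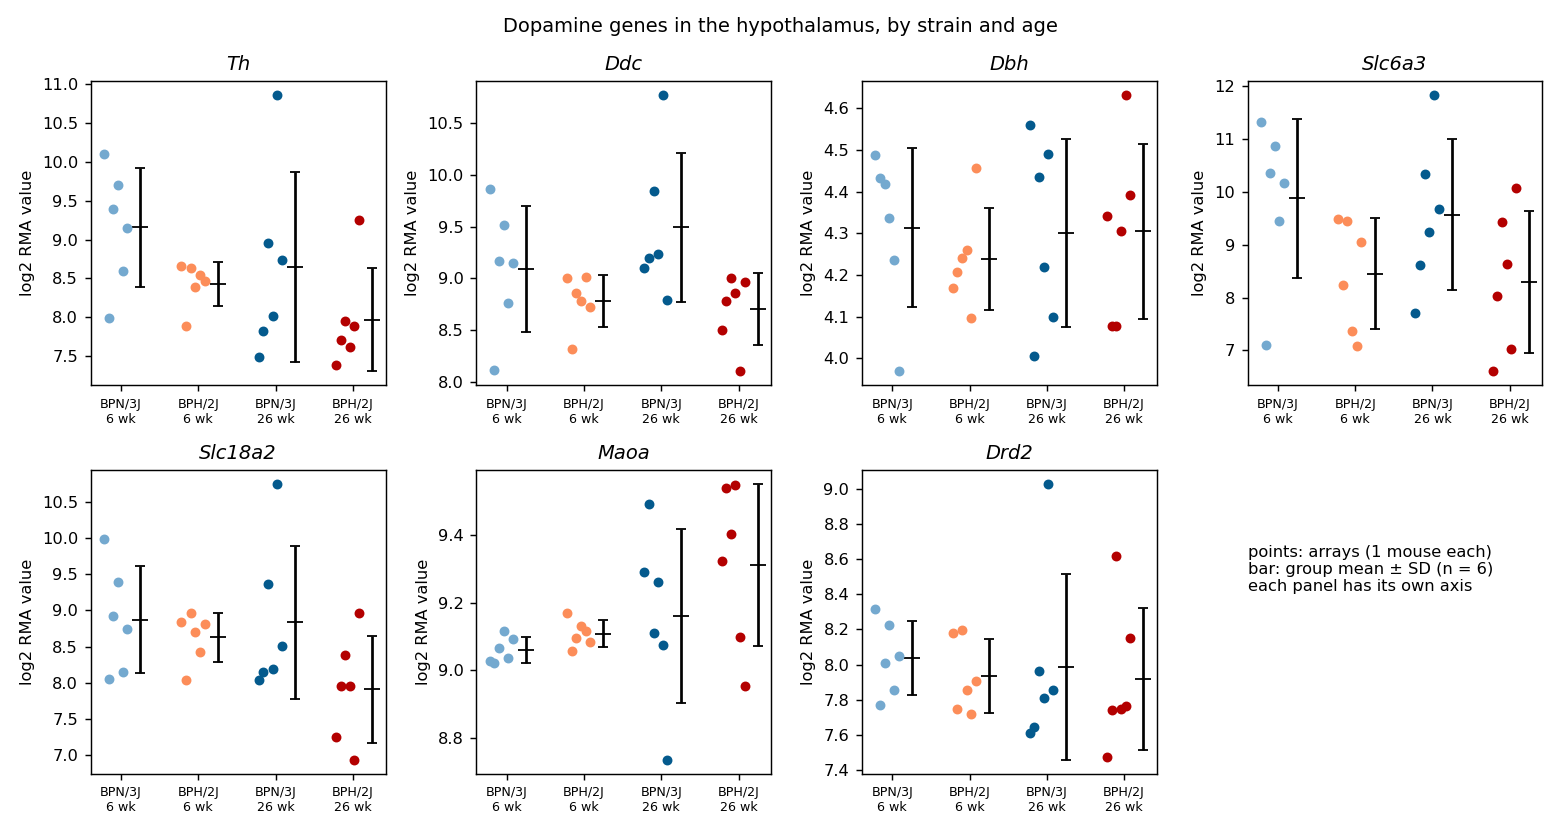
Log2 RMA values of the 7 members, 1 panel per gene with its own axis, with 1 point per array, and the mean ± SD of each group of 6 beside the points. The strains overlap in every panel, the 26-week BPN/3J group holds the highest array for Th, Ddc, Slc6a3, Slc18a2 and Drd2, and Maoa is tight at 6 weeks and spread at 26 weeks.

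The first comparison asked how the hypertensive strain differs from the normotensive one at 6 weeks. With limma over all 24 arrays and Benjamini-Hochberg adjustment over 19937 genes, 0 of 7 members passed an adjusted p of 0.05, where 7.42% of all genes did, and 1 of 7 had an unadjusted p under 0.05, where 18.1% of all genes did. None of the 7 had groups without overlap, against 5.44% of all genes. The fitted differences, BPH/2J minus BPN/3J, were below 0 for 6 of the 7, with a median of -0.24 beside 0.01 over all genes. Slc6a3 differed by -1.43 ± 0.69 (log2, SE, 95% interval -2.85 to -0.01, adjusted p = 0.271), the only member with an unadjusted p under 0.05 (0.0484). Th differed by -0.72 ± 0.41 (interval -1.57 to 0.13, adjusted p = 0.387) and Ddc by -0.31 ± 0.27 (interval -0.86 to 0.24). Slc18a2 differed by -0.24 ± 0.39 and Drd2 by -0.10 ± 0.19, while for Maoa (0.05 ± 0.10, interval -0.16 to 0.25) and Dbh (-0.08 ± 0.11) the intervals stayed within 0.30 of 0. The SE of a gene is pooled over the 4 groups and serves both ages. The Maoa SD was 0.04 in each 6-week group and 0.24 and 0.26 at 26 weeks, so its intervals do not measure the spread at either age alone.

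Tissue markers moved with the same contrast. Of 17 measured thalamic genes 12 were lower in 6-week BPH/2J mice and 0 higher, and of 19 measured hypothalamic genes 11 were higher and 0 lower. The thalamic mean of an array ran from 8.32 to 9.73 in BPH/2J and from 9.66 to 10.02 in BPN/3J at this age. With the thalamic mean as a covariate the Slc6a3 difference became -3.38 (adjusted p = 0.0994) and that of Th -1.95 (adjusted p = 0.115). With the mean of 15 midbrain dopamine markers as a covariate, an alternative chosen after seeing the data, they became -0.68 and -0.25, and that of Slc18a2 turned to 0.21. Without the arrays high in serotonin genes Slc6a3 differed by -1.14 ± 0.66 (adjusted p = 0.405), Th by -0.54 ± 0.31, Ddc by -0.16 ± 0.21 and Slc18a2 by -0.02 ± 0.30. With array weights Slc6a3 passed (-1.66, adjusted p = 0.0452). The part of tissue make-up in these differences was not tested, and in whole tissue fewer cells of a type and less RNA per cell cannot be told apart.

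The same comparison was made in adult mice. At 26 weeks 0 of 7 members passed the same limma threshold, against 2.67% of all genes, and 2 of 7 had an unadjusted p under 0.05, against 12.5%. No member had groups without overlap, against 1.75% of all genes. The members' median difference was -0.68 beside 0.01 over all genes. Ddc differed by -0.79 ± 0.27 (log2, SE, interval -1.34 to -0.24, unadjusted p = 0.00683, adjusted p = 0.144), which is 1.73-fold lower in BPH/2J. Slc18a2 differed by -0.93 ± 0.39 (interval -1.73 to -0.12, adjusted p = 0.292), Slc6a3 by -1.27 ± 0.69 (interval -2.69 to 0.15, adjusted p = 0.476) and Th by -0.68 ± 0.41 (interval -1.53 to 0.17, adjusted p = 0.550). Maoa (0.15 ± 0.10, interval -0.05 to 0.36), Drd2 (-0.07 ± 0.19, interval -0.46 to 0.32) and Dbh (0.00 ± 0.11, interval -0.21 to 0.22) lay nearer 0.

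These values were smaller without some arrays. Without the pair of arrays high in serotonin genes the 26-week differences were -0.53 ± 0.21 for Ddc (adjusted p = 0.194), -0.54 ± 0.30 for Slc18a2, -0.82 ± 0.66 for Slc6a3 and -0.23 ± 0.31 for Th, and that of Drd2 turned to 0.14 ± 0.15. With the midbrain marker mean as a covariate Ddc differed by -0.51 (adjusted p = 0.0623) and Slc18a2 by -0.48 (adjusted p = 0.0765). Over all leave-one-out fits the adjusted p of Ddc ran from 0.0704 to 0.303.

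**Figure D3:**
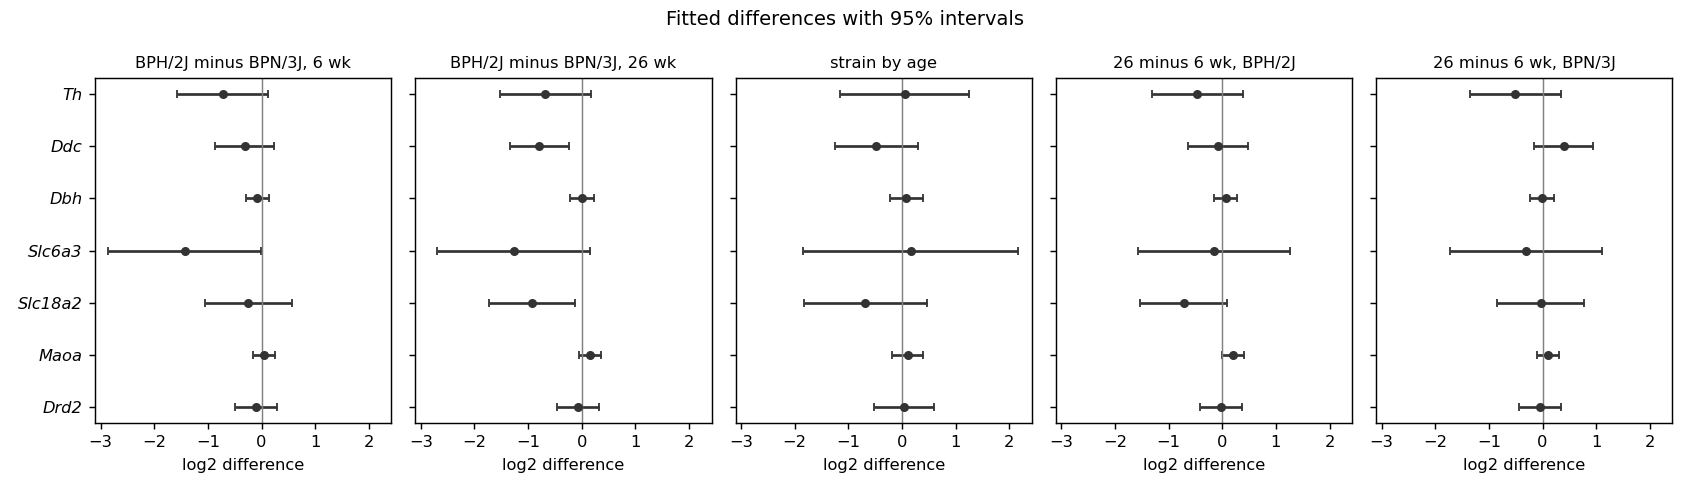
Fitted log2 differences of the 7 members with 95% intervals in the 5 contrasts (limma, 24 arrays). The Slc6a3 interval is the widest in each panel, and the intervals that leave out 0 are those of Slc6a3 at 6 weeks and of Ddc and Slc18a2 at 26 weeks, none of which passed the adjusted threshold.

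Whether the strain difference changed with age was tested as an interaction. Of the 7 members 0 passed, against 0.0301% of all genes, and 0 had an unadjusted p under 0.05, against 10.8%. The largest in size, Slc18a2 (-0.68 ± 0.55, log2, SE, interval -1.82 to 0.46, limma adjusted p = 0.726) and Ddc (-0.48 ± 0.38, interval -1.26 to 0.30, adjusted p = 0.720), had intervals that still reach changes of over 1 unit, so a moderate dependence on age was not detectable here. Without the arrays high in serotonin genes they were -0.52 ± 0.43 for Slc18a2 and -0.37 ± 0.30 for Ddc, and without BPN/3J replicate 5 at 26 weeks alone -0.30 and -0.22.

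Between 6 and 26 weeks, 0 of 7 members passed in BPH/2J, against 16.9% of all genes, and 0 of 7 in BPN/3J, against 12.3%. At an unadjusted p under 0.05 the counts were 0 of 7 in both strains, against 31.6% and 29.3%, and no member had groups without overlap, against 4.05% and 4.57%. In BPH/2J, Slc18a2 differed by -0.72 ± 0.39 (26 minus 6 weeks, log2, SE, interval -1.53 to 0.09, limma adjusted p = 0.212), Th by -0.46 ± 0.41 and Slc6a3 by -0.15 ± 0.69. Maoa differed by 0.20 ± 0.10 (unadjusted p = 0.0511, adjusted p = 0.160). Without BPH/2J replicate 6 at 26 weeks, the array with the lowest Maoa of that group, the Maoa value was 0.28 with an adjusted p of 0.0358. Ddc (-0.08 ± 0.27), Drd2 (-0.02 ± 0.19) and Dbh (0.07 ± 0.11) lay nearer 0. Of the 17 thalamic genes 12 rose in this contrast, and with their mean as a covariate the signs turned, to 0.74 for Th, 1.76 for Slc6a3 and 0.59 for Slc18a2 (adjusted p of 0.703, 0.567 and 0.739). With the midbrain marker mean as a covariate Slc18a2 passed (-0.57, adjusted p = 0.00830), and with array weights Slc18a2 (-0.85, adjusted p = 0.0445) and Maoa (0.29, adjusted p = 0.00296). Of all 19937 genes 3599 passed with that covariate and 7475 with array weights.

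In BPN/3J, Th differed by -0.51 ± 0.41 with age (log2, SE, interval -1.36 to 0.34, limma adjusted p = 0.429) and Ddc by 0.40 ± 0.27 (interval -0.15 to 0.95, adjusted p = 0.330). Both values moved when 1 array was left out, Th away from 0 and Ddc towards 0. Without BPN/3J replicate 5 at 26 weeks the Th value was -0.95 with an adjusted p of 0.0409 and the Ddc value 0.14 with an adjusted p of 0.693, and without both arrays high in serotonin genes Th was at -0.76 ± 0.32 (adjusted p = 0.105) and Ddc at 0.30 ± 0.22 (adjusted p = 0.366). In the fit without replicate 5, Slc6a3 moved to -0.77, Slc18a2 to -0.42 and Drd2 to -0.26. With the midbrain marker mean as a covariate Ddc passed (0.49, adjusted p = 0.0317) and Th was at -0.35 (adjusted p = 0.144). In that fit 2632 of all 19937 genes passed. Slc6a3 (-0.31 ± 0.69), Slc18a2 (-0.04 ± 0.39), Drd2 (-0.05 ± 0.19), Maoa (0.10 ± 0.10) and Dbh (-0.01 ± 0.11) had intervals that include 0.

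The variation between mice of the same group was the main feature of these genes. The pooled within-group SD was 1.34 log2 units for Slc6a3, 0.80 for Th, 0.76 for Slc18a2, 0.52 for Ddc and 0.36 for Drd2, against a median of 0.16 over 19937 genes. Ranked among all genes these SDs stood at percentiles 100.0, 99.9, 99.9, 99.4 and 98.1, given as a description. Maoa (0.18, percentile 64.0) and Dbh (0.19, percentile 71.6) were ordinary in this respect. Without the arrays high in serotonin genes the pooled SDs were 1.24 for Slc6a3, 0.57 for Th, 0.56 for Slc18a2, 0.38 for Ddc and 0.26 for Drd2, at percentiles 100.0, 99.6, 99.6, 98.5 and 93.2.

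The 5 most variable genes varied together. Over the deviations of 24 arrays from their group means, 10 of the 21 pairs of members passed an adjusted p of 0.05 in permutations within groups, and these were the 10 pairs among Th, Ddc, Slc6a3, Slc18a2 and Drd2. Their Pearson r ran from 0.76 (Ddc with Drd2) to 0.91 (Th with Slc18a2) and their Spearman rho from 0.71 to 0.91, with adjusted p of at most 0.00134 for r and 0.000987 for rho. The smallest unadjusted p, 1e-05, is the smallest that 100000 permutations can give. Without the 2 arrays farthest from the median on the first gene of a pair, r ran from 0.62 to 0.86 with adjusted p of at most 0.00718. Without the pair of arrays high in serotonin genes, r ran from 0.55 to 0.83 and 10 of 10 still passed. Within the 6-week arrays 10 of the 10 passed and within the 26-week arrays 9 of 10, Th with Ddc missing there (r = 0.76, adjusted p = 0.0546). By rho the counts within an age were 8 of 10 at 6 weeks and 8 of 10 at 26 weeks, and without the 2 farthest arrays r within an age went as low as 0.31 (Ddc with Slc6a3, 6 weeks) and 0.30 (Th with Ddc, 26 weeks). The 11 pairs with Maoa or Dbh had r from -0.43 to 0.22, and 0 of 11 passed.

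Markers of midbrain dopamine neurons varied with them. The list held 16 transcription factors and markers of ventral midbrain dopamine neurons, 15 of them measured and 15 of those on average above the unnamed level. The mean of the 15 correlated with Th at r = 0.93 (rho = 0.85), with Slc18a2 at 0.94 (0.91), with Slc6a3 at 0.87 (0.94), with Drd2 at 0.85 (0.87) and with Ddc at 0.85 (0.78) over the same 24 deviations. All 5 had permutation p adjusted over 21 relations of at most 0.000546 for r and 0.000735 for rho, and without the 2 arrays with the farthest marker mean r stayed between 0.72 and 0.89. Without the arrays high in serotonin genes r was 0.84, 0.88, 0.91, 0.66 and 0.67 in that order of genes. Maoa (r = -0.27, adjusted p = 0.511) and Dbh (r = 0.26, adjusted p = 0.511) did not pass. The relation of the 5 genes was not with midbrain markers alone. Their r was 0.53 to 0.77 with the mean of markers of other monoamine cells, a list that holds Tph2 and Slc6a4. That mean read 6.15 in BPN/3J replicate 5 at 26 weeks and 6.02 in BPN/3J replicate 1 at 6 weeks. The other arrays of these groups read 5.19 to 5.53 and 5.30 to 5.50. With genes of tetrahydrobiopterin, the Th cofactor, r was 0.48 to 0.70. Their mean read 8.11 in BPN/3J replicate 5 at 26 weeks and 7.53 to 7.85 on the rest of that group. With astrocyte markers r was 0.41 to 0.69, with oligodendrocyte (myelin-forming cell) markers 0.33 to 0.61 and with thalamic markers -0.63 to -0.49. These relations with other lists were not tested, and their r was not computed without the arrays high in serotonin genes.

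Single genes were as close. Th was most like Slc18a2 (r = 0.91), Ret (0.90), the receptor for glial neurotrophic factors, and En1 (0.90), a homeobox gene of the midbrain and hindbrain. Slc6a3 was most like Chrna6 (0.93) and Chrnb3 (0.87), nicotinic receptor subunits of midbrain dopamine neurons, and Slc10a4 (0.88), a vesicular transporter-like protein of monoamine and cholinergic neurons. Slc10a4 was also among the 3 genes most like Slc18a2 (0.91), Ddc (0.89) and Drd2 (0.86), and Ddc was also close to Sv2c (0.90), a synaptic vesicle protein. Of the 15 midbrain markers 14 had r above 0 with Th and 14 with Slc6a3, and Calb1 was below 0 with both (-0.40 and -0.62). Without the arrays high in serotonin genes r was 0.80 for Th with Ret, 0.78 for Th with En1, 0.92 for Slc6a3 with Chrna6 and 0.93 for Slc6a3 with Slc10a4. Slc10a4 then stood at 0.82 with Slc18a2, 0.77 with Ddc and 0.70 with Drd2.

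Levels on single arrays show the size of this. En1 read 6.97 and Chrna6 9.04 in BPN/3J replicate 5 at 26 weeks, and 6.23 and 8.28 in BPN/3J replicate 1 at 6 weeks, while over the other 22 arrays En1 ran from 5.02 to 6.19 and Chrna6 from 4.73 to 7.63. The midbrain marker mean ran from 7.19 through a median of 7.40 to 7.49 in 6-week BPH/2J, from 7.21 through 7.53 to 7.91 in 6-week BPN/3J, from 7.06 through 7.29 to 7.71 in 26-week BPH/2J and from 7.12 through 7.28 to 8.33 in 26-week BPN/3J. In each contrast 0 of the 15 markers passed the limma threshold, where 0.0301% to 16.9% of all genes did. In the strain contrasts more of them lay below 0 than above, as with the members. At 6 weeks 10 of 15 were below 0, with a median of -0.14 (0.01 over all genes) and 5 of 15 at an unadjusted p under 0.05, where 18.1% of all genes were. At 26 weeks 11 of 15 were below 0, with a median of -0.20 and 2 of 15 at an unadjusted p under 0.05, where 12.5% of all genes were. The group medians of the marker mean were level there (7.29 in BPH/2J and 7.28 in BPN/3J). BPN/3J replicate 5 read 8.33 and the other BPN/3J arrays at most 7.67, so that array weighs in the 26-week lean.

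After the midbrain marker mean was regressed out, an alternative chosen after seeing the data, 0 of the 10 pairs passed by r, which ran from 0.03 to 0.60, highest for Ddc with Slc18a2 (adjusted p = 0.0735), the pair that passed by rho (rho = 0.63, adjusted p = 0.0282). A pair outside the 10, Ddc with Maoa, passed there (r = 0.65, adjusted p = 0.00987). After regression on the thalamic mean 10 of 10 still passed. What sets the shared variation, the cells contained in a piece of tissue or the activity of the genes in them, was not tested.

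For the dopamine neurons that lie in the hypothalamus itself, the list held 17 transcription factors and hormone receptors, 14 of them measured, such as Isl1, Dlx1, Otp and Pbx3. Its mean correlated with Th at r = -0.17 (rho = -0.02), with Slc6a3 at -0.19, with Slc18a2 at -0.04, with Drd2 at -0.21 and with Ddc at 0.15, the lowest of these 5 adjusted p being 0.555. These pooled values join different signs at the 2 ages. Within the 6-week arrays r was 0.47 for Th, 0.44 for Ddc, 0.24 for Slc6a3, 0.46 for Slc18a2 and 0.29 for Drd2, and within the 26-week arrays -0.39, 0.0045, -0.43, -0.23 and -0.34, a difference that was not tested. Maoa stood at r = 0.51 (rho = 0.40, adjusted p = 0.125), 0.55 within each age, and Dbh at 0.25. Of the 14 single genes 6 had r above 0 with Th and 8 below, from -0.61 for Isl1 to 0.72 for Pbx3. In the 6-week strain contrast 1 of the 14 passed, where 7.42% of all genes did. It was Isl1, higher in BPH/2J (0.89 ± 0.22, log2, SE, limma adjusted p = 0.0129). With age in BPH/2J 2 of the 14 rose and 1 fell, where 16.9% of all genes passed. Stat5b, which carries the prolactin signal, fell by 0.39 while Pax6 rose by 0.35 and Meis2 by 0.72. In both contrasts general hypothalamic and thalamic markers moved as well, and their part was not tested.

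**Figure D4:**
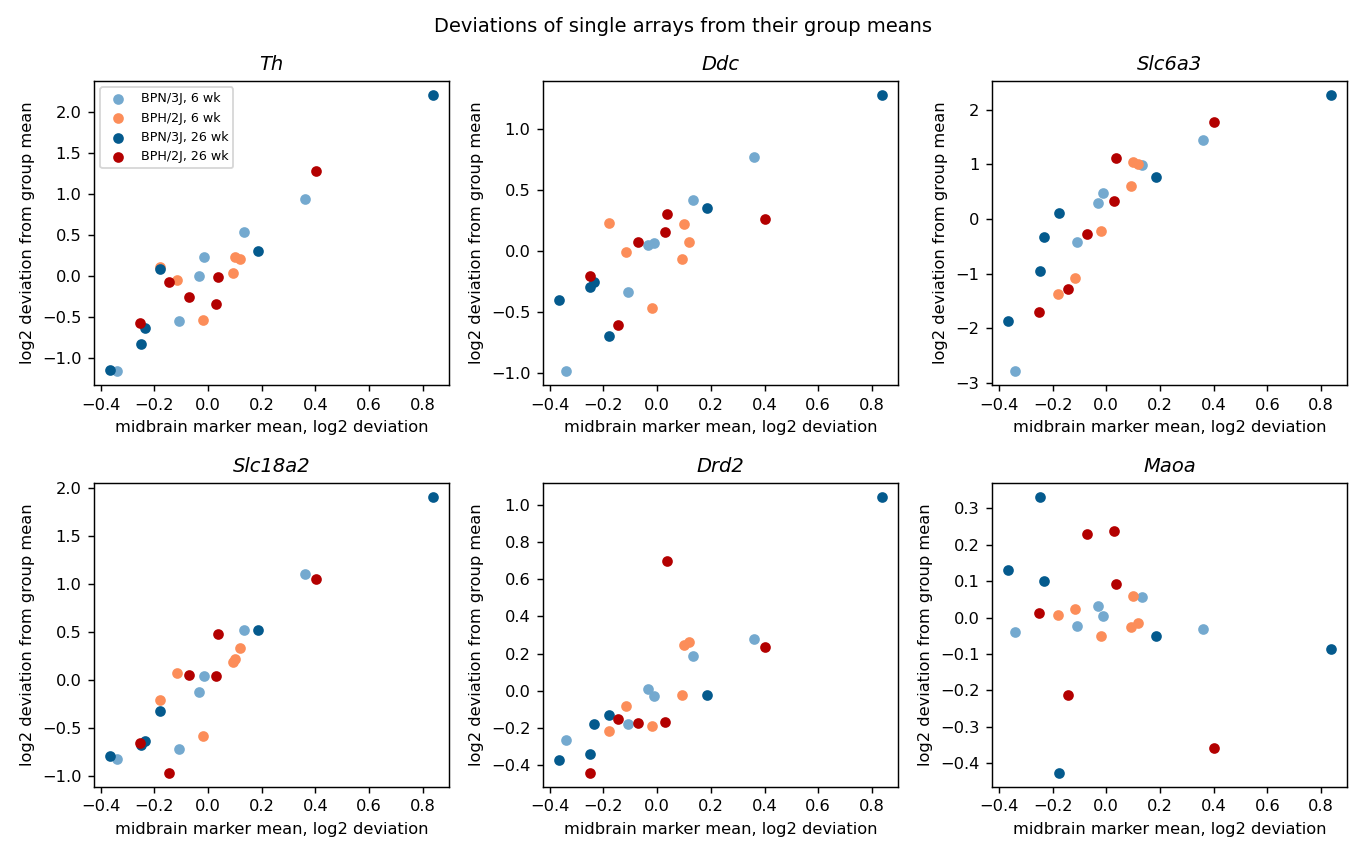
Deviation of each array from its group mean, in log2 units, for 6 members (vertical axis) against the mean of 15 midbrain dopamine markers (horizontal axis), coloured by group. Th, Ddc, Slc6a3, Slc18a2 and Drd2 climb with the marker mean (r from 0.85 to 0.94), with BPN/3J replicate 5 at 26 weeks at the far right, and Maoa shows no such slope.

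**Figure D5:**
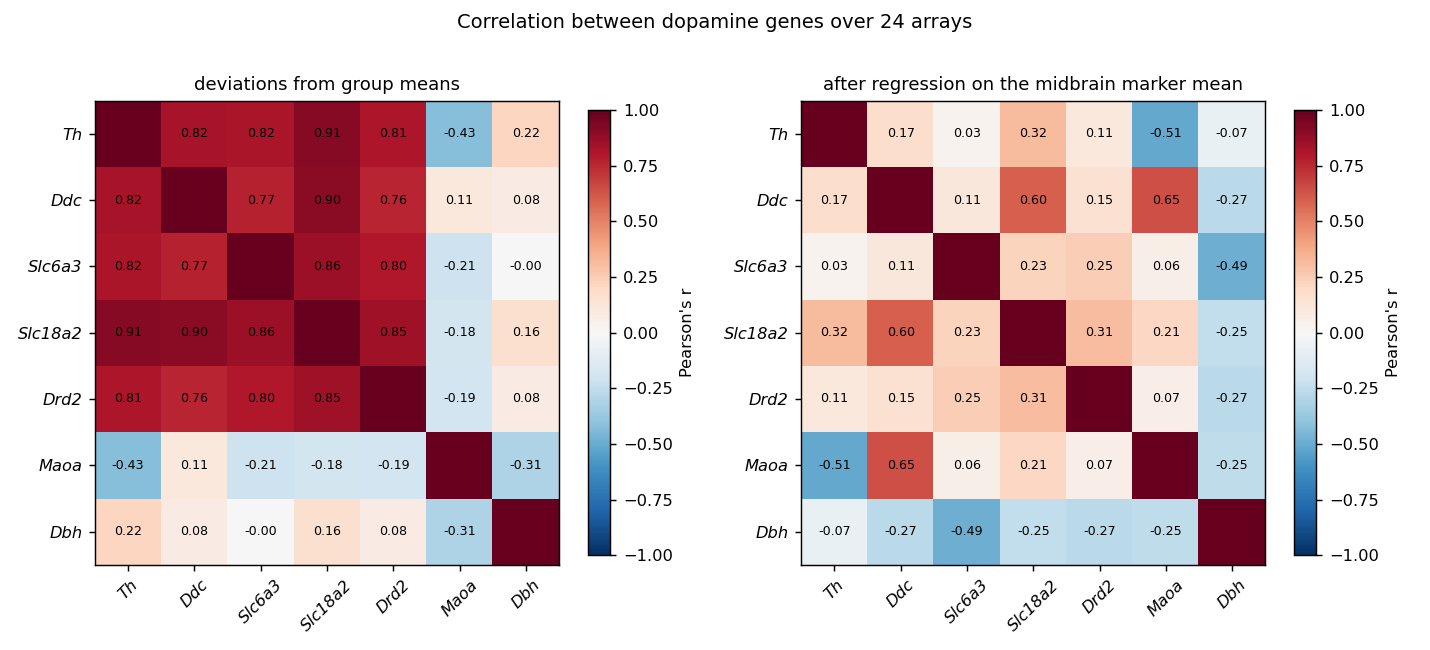
Pearson r between members over the deviations of 24 arrays, before (left) and after (right) regression on the midbrain marker mean. The block of Th, Ddc, Slc6a3, Slc18a2 and Drd2 holds r from 0.76 to 0.91 on the left and from 0.03 to 0.60 on the right.

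Maoa followed another axis. Its deviations correlated at r = 0.87 (rho = 0.88, adjusted p = 0.00063 for r and 0.000735 for rho) with the first principal component of all genes' deviations from group means, which held 29.2% of their variance, and at 0.88 without the 2 arrays with the farthest scores. The correlation was 0.90 within the 26-week arrays and 0.30 within the 6-week arrays. The genes most like Maoa were Racgap1 (0.94), a regulator of cell division, Syf2 (0.93), a splicing factor, and Akap7 (0.93), an anchor of protein kinase A. At 26 weeks BPH/2J replicates 5 and 6 and BPN/3J replicates 3, 5 and 6 had scores below 0 and Maoa values from 8.73 to 9.11, while the other 7 arrays ran from 9.26 to 9.55. What separates these arrays is not stated in the labels, and its part in the Maoa values was not tested. Th also correlated with this component (r = -0.63, permutation adjusted p = 0.00879, rho = -0.61, adjusted p = 0.0147). Without the 2 arrays with the farthest scores r was weaker, -0.37, and did not pass (adjusted p = 0.172). It was -0.55 without the arrays high in serotonin genes, -0.11 within the 6-week arrays and -0.74 within the 26-week arrays. Dbh, at its dim level, passed by rho (-0.57, adjusted p = 0.0328) and not by r (-0.52, adjusted p = 0.0876).

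Among the other enzymes that break down monoamines, 8 of 10 listed were measured. With age in BPH/2J 1 of the 8 rose and 1 fell, where 16.9% of all genes passed. With age in BPN/3J 1 fell, where 12.3% of all genes passed. In the 6-week strain contrast 1 was higher and 0 lower, where 7.42% of all genes passed. Maob, the second monoamine oxidase, was higher at 26 than at 6 weeks in BPH/2J by 0.79 ± 0.14 (log2, SE, n = 6 per group, limma adjusted p = 0.000636). Aldh2, the mitochondrial aldehyde dehydrogenase that clears the aldehyde made by monoamine oxidases, was lower with age in both strains, by -0.27 ± 0.06 in BPH/2J (adjusted p = 0.00411) and -0.23 ± 0.06 in BPN/3J (adjusted p = 0.0200). Sult1a1, a phenol sulfotransferase, was higher in 6-week BPH/2J (0.40 ± 0.11, adjusted p = 0.0302). No gene of this list passed in the strain contrast at 26 weeks, against 2.67% of all genes. There 1 of 8 had an unadjusted p under 0.05, against 12.5% of all genes. The list's median difference in 6-week mice was 0.02, beside 0.01 for all genes. Tissue markers moved with these contrasts as well. Of 17 thalamic genes 12 rose with age in BPH/2J and 0 fell. In 6-week BPH/2J 12 of these were lower and 0 higher, while 11 of 19 hypothalamic genes were higher and 0 lower. Of 8 astrocyte genes 2 were lower with age in each strain and 0 higher, where 16.9% (BPH/2J) and 12.3% (BPN/3J) of all genes passed. By sign, 5 of the 8 lay below 0 and 3 above for BPH/2J (median -0.08, beside -0.03 over all genes). For BPN/3J 7 lay below and 1 above (median -0.13, beside -0.03). The part of tissue make-up in the Maob, Aldh2 and Sult1a1 values was not tested.

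Th needs tetrahydrobiopterin, and 6 of 7 genes of its synthesis and recycling were measured. Qdpr, which regenerates the cofactor, was lower in BPH/2J at 6 weeks (-0.37 ± 0.09, log2, SE, limma adjusted p = 0.0124) and lower with age in BPN/3J (-0.39 ± 0.09, adjusted p = 0.0112). It was the only called gene of the 6 in any contrast, where 7.42% and 12.3% of all genes were called in these 2 contrasts. Markers of oligodendrocytes, the myelin-forming cells, moved with both contrasts: of 11 measured, 5 were lower in 6-week BPH/2J and 7 lower with age in BPN/3J, with 11 of 11 below 0 in each (medians -0.46 and -0.48). Their part in the Qdpr values was not tested. Gch1, the first enzyme of the synthesis, was dim, at or below the unnamed level on 8 of 24 arrays, but read 6.42 and 5.81 on the arrays high in serotonin genes against 4.26 to 5.62 on the other 22.

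None of the other 4 dopamine receptors passed in any contrast, where 0.0301% to 16.9% of all genes did. In 6-week mice 1 of 4 had an unadjusted p under 0.05, against 18.1% of all genes. In the other contrasts 0 of 4 did, against 10.8% to 31.6% of all genes. Drd1 ran from 6.72 to 9.01, Drd3 from 5.73 to 6.68, Drd4 from 6.01 to 6.59 and Drd5 from 6.58 to 7.50 over 24 arrays. The upper end for Drd1 was the BPH/2J array high in striatal genes.

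Of 15 intracellular partners of dopamine receptors and transporters 13 were measured. In the 6-week strain contrast 1 was higher and 2 lower, where 7.42% of all genes passed. In BPH/2J at 6 weeks Rgs4, which shortens signalling by inhibitory G proteins, was lower by -0.87 ± 0.13 (log2, SE, limma adjusted p = 7.59e-05) and Gnal, the G protein subunit of D1 signalling, by -0.53 ± 0.10 (adjusted p = 0.000845), while Caly, a vesicle protein that binds D1 receptors, was higher by 0.30 ± 0.07 (adjusted p = 0.00850). At 26 weeks Rgs4 alone of the list passed (-0.48 ± 0.13, adjusted p = 0.0444), where 2.67% of all genes did. With age in BPH/2J, 2 of the 13 rose and 2 fell, where 16.9% of all genes passed. The 3 with the smallest p were these. Gnal rose by 0.58 ± 0.10 (adjusted p = 0.000420), and Arrb2, which desensitises receptors, differed by -0.25 ± 0.07 (adjusted p = 0.0177) and Caly by -0.22 ± 0.07 (adjusted p = 0.0376). With age in BPN/3J Stx1a (-0.33 ± 0.10) and Ncs1 (-0.18 ± 0.06), partners of the dopamine transporter and of Drd2, fell (adjusted p = 0.0329 and 0.0363). In that contrast 12.3% of all genes passed. The thalamic markers moved with the 6-week strain contrast and with age in BPH/2J, where 12 of 17 rose, and their part in these values was not tested.

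Of 12 markers of other monoamine cells 9 were measured. In the 6-week strain contrast 1 of the 9 was higher and 0 lower, where 7.42% of all genes passed. With age in BPH/2J 2 were lower and 0 higher, where 16.9% of all genes passed. Hdc, which makes histamine in the tuberomammillary nucleus of the hypothalamus, was higher in BPH/2J at 6 weeks (1.16 ± 0.33, log2, SE, limma adjusted p = 0.0310) and lower with age in that strain (-1.36 ± 0.33, adjusted p = 0.00682). Of the 19 general hypothalamic genes, which include Hdc itself, 11 were higher in the first of these contrasts. In the second 9 of the 19 were lower, with 18 of 19 below 0 (median -0.42). The part of tissue make-up in the Hdc values was not tested. Slc29a4, a monoamine transporter of the plasma membrane, fell with age in BPH/2J (-0.48 ± 0.11, adjusted p = 0.00533). Tph2 and Slc6a4 passed in no contrast. Lactotrophs of the pituitary carry Drd2 as well. Their hormone gene, prolactin (Prl), was at or below the unnamed level on 24 of 24 arrays, and growth hormone (Gh) ran from 5.18 through a median of 5.53 to 7.98. Of 8 measured pituitary genes 1, Tbx19, passed in a contrast, with age in BPH/2J (-0.35, limma adjusted p = 0.0458), where 16.9% of all genes passed. Its group means, 4.84 to 5.19, lay within the range of the array medians of unnamed probe sets (4.60 to 5.25), so this was a dim signal. All 8 pituitary genes lay below 0 in that contrast.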

How the data were processed

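Hypothalamic RNA of 24 mice was hybridised to 24 arrays. The authors deposited log2 values of 34760 probe sets. Per the submitters' processing notes they used RMA and limma; versions and build were not given in the sources used here. RMA equalises the arrays' distributions, so values are relative to the other genes of an array. There is no read depth here, and the number of arrays limits the precision (median SE 0.09 log2 units, 0.13 for the interaction).

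Groups came from the sample titles. In the platform annotation 21640 probe sets had 1 symbol, 1321 several and 11799 none here, and 21553 matched the RefSeq table of GRCm38.p6. For 954 genes with more than 1 probe set, the brightest on average was used. limma 3.58.1 in R 4.3.3 fitted a mean per group over 24 arrays (20 residual degrees of freedom) and 5 contrasts, with Benjamini-Hochberg adjustment within a contrast and a threshold of 0.05. The code was tested on simulated data. Alternatives were the replicate block, only the groups compared, a trended and robust moderation, a filter on dim genes, rescaled arrays, averaged probe sets, array weights, leaving out arrays, and the thalamic mean, midbrain mean or first component as a covariate, the last 2 and the fit without the arrays high in serotonin genes being chosen after seeing the data. Correlations used deviations from group means, with 100000 permutations within groups, two-sided, adjusted over 21 relations in each family.

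The 7 members and 15 further gene lists were chosen with earlier results of these data known, so they are no independent support. Named are the members in every contrast, at most 3 called genes of each list and contrast with the smallest p (lists of neighbouring tissues and other cells are given as counts where they bear on a member), and the 3 genes most like each member; other names, chosen after their values were seen, are said to be so or stand for single arrays.

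No array repeated another of its group (mean absolute difference at least 0.12). For pairing, the deviations of arrays with the same number were correlated. In the 26-week strain contrast every pair correlated at over 0.1 (0.13 to 0.44), in the 6-week contrast from -0.23 to 0.05, with age in BPH/2J from 0.01 to 0.41 and with age in BPN/3J from -0.10 to 0.05. Arrays with different numbers were not correlated, so these values cannot tell whether same-numbered mice were paired. The labels do not say what a number marks. Whether mice shared litters or processing days is not given, so p-values measure the spread between these mice.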

Additional observations from a re-analysis of the deposited data

Results flagged for a closer look

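Single arrays far from their group were looked for in the 7 members and 4 groups, 28 tests in all, by the gap to the nearest array as a share of the group's range. Chance gives about 1 in 20, and 3 were found. Th in BPH/2J replicate 6 at 26 weeks read 9.25, above the next array at 7.95. That array also had the highest midbrain marker mean (7.71), Slc6a3 (10.08) and Slc18a2 (8.96) of its group, and the lowest Maoa (8.95).

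Th in BPH/2J replicate 2 at 6 weeks read 7.89, under the next array at 8.38. It was also the lowest of its group in Slc18a2 (8.04) and Ddc (8.32), and its thalamic mean (9.73) was the highest of the group. Drd2 in BPN/3J replicate 5 at 26 weeks read 9.03, above the next array at 7.97, on the array that was also highest of its group in 12 of 15 midbrain markers and in Tph2 (8.17). The part of these markers in the values was not tested.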

How the results depend on the processing

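Members past the threshold numbered 0 of 7 in the 5 contrasts and stayed at 0 in most alternatives. With array weights the count was 1 at 6 weeks (Slc6a3, -1.66, adjusted p = 0.0452), 2 for age in BPH/2J (Slc18a2, -0.85, adjusted p = 0.0445, and Maoa, 0.29, adjusted p = 0.00296) and 1 for age in BPN/3J (Th, -0.96, adjusted p = 0.0306). Of all 19937 genes array weights called 3725, 7475 and 6416 in these contrasts. With the midbrain marker mean as a covariate the member count was 1 for age in BPH/2J (Slc18a2, -0.57, adjusted p = 0.00830) and 1 for age in BPN/3J (Ddc, 0.49, adjusted p = 0.0317), and with the first component 1 for age in BPH/2J (Maoa, 0.20, adjusted p = 0.00845). The same fits called 3599, 2632 and 5722 of all genes. Leaving out 1 array gave 0 to 1 in each age contrast and 0 in the others. Pairs of members past the threshold fell from 10 to 1 after regression on the midbrain marker mean. The replicate block changed no member's call (0 of 7 in each contrast), with 1556, 550, 27, 3883 and 3071 genes called in the order of the report.

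Some signs turned. With the midbrain covariate these were Slc18a2 (0.21) and Drd2 (0.094) at 6 weeks, Drd2 at 26 weeks (0.12), Ddc (0.011), Slc6a3 (0.090) and Drd2 (0.046) with age in BPH/2J, and Slc18a2 (0.12) and Drd2 (0.015) with age in BPN/3J. With the thalamic covariate they were the interactions of Ddc (0.36) and Slc18a2 (0.65), and with age in BPH/2J Th (0.74), Ddc (0.74), Slc6a3 (1.76), Slc18a2 (0.59) and Drd2 (0.65). Dbh turned at 26 weeks (-0.016 after quantile normalization, -0.071 with array weights) and with age in BPN/3J (0.023 and 0.026), and Drd2 at 26 weeks without the arrays high in serotonin genes (0.14). Leaving out 1 array turned the sign of some fits. At 26 weeks the range was -0.063 to 0.054 for Dbh and -0.21 to 0.14 for Drd2. For the interaction it was -0.21 to 0.49 for Th, -0.21 to 0.72 for Slc6a3 and -0.11 to 0.24 for Drd2. With age in BPH/2J it was -0.17 to 0.042 for Ddc, -0.51 to 0.19 for Slc6a3 and -0.16 to 0.071 for Drd2. With age in BPN/3J it was -0.081 to 0.047 for Dbh, -0.87 to 0.060 for Slc6a3, -0.42 to 0.19 for Slc18a2 and -0.26 to 0.024 for Drd2. The cause was not tested.

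Over all genes the 6-week strain contrast called 1479 genes, but 2322 with only its groups in the fit or with the first component, 3725 with array weights and 164 with the thalamic covariate. The 26-week contrast called 532, but 248 with only its groups and 953 with the first component. The interaction called 6, but 31 with a trended and robust moderation, 23 above the unnamed level, 34 after quantile normalization, 683 with array weights, 0 with the thalamic, 132 with the midbrain and 280 with the first-component covariate, and 24 without the arrays high in serotonin genes; the fit with only the groups compared cannot give it. Age called 3362 in BPH/2J, but 7475 with array weights, 8 with the thalamic covariate and 5722 with the first component, and 2445 in BPN/3J, but 6416 and 5163 with the weights and the component. Leaving out 1 array gave 0 to 496 genes for the interaction, 2138 to 4838 for age in BPH/2J and 1034 to 4230 for age in BPN/3J. Rescaling moved the median of all genes by at most 0.02.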
